A study of Mus musculus with 12 samples.

Results

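The Zfp genes examined here are protein-coding genes of the Gencode vM1 annotation whose symbol is Zfp followed by digits. Members were chosen on their mean raw count over the 12 libraries, which had to be 20 or more, and genes within 10 Mb of Fosb on chromosome 7 or on the sex chromosomes were left out. Of 344 genes with such a symbol, 29 lay in the interval around Fosb and 7 on X or Y, 84 of the other 308 had a mean under 20, and 224 were members, out of 37310 genes counted. The members just inside the threshold were Zfp946 with a mean of 20.4 counts, Zfp566 with 21 and Zfp184 with 21.1, and those just outside were Zfp105 with 19.8, Zfp14 with 19.7 and Zfp202 with 19.0. Zfp319 has 2 entries in the annotation, so the 224 genes carry 223 symbols.

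Zinc finger proteins of the C2H2 type fold short stretches of the chain around a zinc ion held by a pair of cysteines and a pair of histidines, and arrays of such fingers read DNA or RNA sequence. Many carry a KRAB domain, which recruits Trim28 (KAP1) and with it the histone methyltransferase Setdb1 and heterochromatin proteins, and are known for silencing retroelements and imprinted loci. Others without KRAB are developmental regulators, RNA-binding proteins or ubiquitin and SUMO ligases, and several are expressed widely in brain.

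The libraries came from circuit-specific translating ribosome affinity purification (TRAP), in which a GFP tag on the ribosomal protein L10a is switched on by Cre and ribosomes are pulled down with their mRNA. All mice were on C57BL/6, carried Rosa26 eGFP-L10a and received retrograde HSV-Cre in nucleus accumbens (NAc) 3 weeks before ventral hippocampus (vHPC) was punched, so the tag marks vHPC neurons that project to NAc and, by this route, any other NAc-projecting cell in the punch. WT mice had intact FosB, while the mice labelled FosB knockout (KO) were FosB fl/fl, in which the same Cre deletes FosB wherever the vector reached, not only in this circuit. Each genotype gave 3 pools of mice (3 mice per pool by the labels, 3 to 4 by the methods, numbered 1 to 3 in WT and 2 to 4 in KO), from each of which tagged ribosomes (TRAP) and RNA of the whole punch (input) were sequenced. In bulk RNA, fewer cells of a type and less RNA per cell cannot be told apart.

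The depth ran from 3416030 to 5614089 counts on genes, so that 3 counts, the limit set by a count of 0, stood at 0.534 to 0.878 CPM (counts scaled by library size, before TMM scaling). Fosb itself had 45.3, 32.1 and 40.2 CPM in the WT TRAP libraries, 29.4, 18.8 and 21.5 in those of KO, and 30.3, 22.3 and 24.5 in WT input against 17.1, 16.0 and 14.9 in KO input, so the genotypes did not overlap in either fraction (log2 ratio -0.76 ± 0.21 SE in TRAP, edgeR adjusted p = 0.337). The tissue label, hippocampal neurons, was met in TRAP by the glutamatergic markers, whose 7 genes summed to 7694 to 9174 CPM against 5871 to 6804 in input. Other cells were depleted but not removed: the 8 astrocyte markers summed to 324 to 421 CPM in TRAP and 1989 to 2453 in input, the 9 oligodendrocyte markers to 159 to 204 and 717 to 1128, the 6 microglial markers to 2.36 to 12.7 and 61.3 to 109.5, and the 7 GABAergic markers to 152.5 to 585.5 and 677.6 to 810.5. KO TRAP 2 stood apart in the GABAergic sum, at 585.5 CPM against 152.5 to 375.7 in the other TRAP libraries. The 4 endothelial markers summed to 0 to 3.64 CPM in TRAP, with none of the 4 at 0 in all TRAP libraries, and to 3.49 to 19.5 in input. The 5 CA1 and subiculum markers summed to 191 to 278 CPM in TRAP and 117 to 165 in input, with Pou3f1 at 0 in all 12 libraries, but of the 4 tested only Fibcd1 was higher in TRAP (log2 1.64), Fn1 was lower (-3.36), and Wfs1 (-0.04) and Nts (0.21) were not called. The 5 dentate and CA3 markers summed to 49.5 to 81.4 CPM in TRAP and 116.5 to 189 in input, with 3 of 4 tested lower in TRAP, Prox1 the most (log2 -3.12). Genes of the mitochondrial genome held 5.29% to 9.05% of the counts in input and at most 0.130% in TRAP.

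The finger that defines the family is shown as coding DNA for 7 members on which the results turn. Each line runs from the first zinc-binding cysteine codon through the codons that follow the last histidine, 84 bases read from mm9 on the strand of the gene, with the 2 cysteine and 2 histidine codons in capitals.
Zfp536 (chr7:38354532-38354615, minus strand): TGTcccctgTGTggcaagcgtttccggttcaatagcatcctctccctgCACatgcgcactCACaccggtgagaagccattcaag
Zfp62 (chr11:49029045-49029128, plus strand): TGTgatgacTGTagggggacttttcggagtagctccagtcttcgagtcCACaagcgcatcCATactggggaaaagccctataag
Zfp266 (chr9:20304040-20304123, minus strand): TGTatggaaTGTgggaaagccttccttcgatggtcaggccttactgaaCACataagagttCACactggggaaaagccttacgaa
Zfp943 (chr17:22129445-22129528, plus strand): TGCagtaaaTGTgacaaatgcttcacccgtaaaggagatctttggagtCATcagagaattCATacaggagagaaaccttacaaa
Zfp580 (chr7:5004698-5004781, plus strand): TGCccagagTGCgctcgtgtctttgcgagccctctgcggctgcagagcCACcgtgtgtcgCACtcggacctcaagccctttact
Zfp444 (chr7:6141148-6141231, plus strand): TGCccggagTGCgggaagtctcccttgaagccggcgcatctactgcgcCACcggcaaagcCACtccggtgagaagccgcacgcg
Zfp238 (chr1:179378347-179378430, plus strand): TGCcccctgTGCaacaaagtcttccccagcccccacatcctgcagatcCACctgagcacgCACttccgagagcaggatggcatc
The finger shown was the first of standard length followed by the linker TGEKP or a close variant. Zfp580, Zfp444 and Zfp238 had no such finger, so their first finger is shown. The linker codons of the other genes are thus alike by choice. Identity was counted over all 84 bases, capitals included. Zfp266 and Zfp943, both with a KRAB box, were identical at 48 of 84 bases, as were Zfp62 and Zfp266, while Zfp266 and Zfp580 shared 29. The GC content of these fingers ran from 39.3% in Zfp943 to 67.9% in Zfp444.

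A C2H2 finger was found in the protein of 216 members, with a median of 9 fingers and a maximum of 36 in Zfp142. A KRAB A box was found in 106 members, which had a median of 12 fingers, against 7 in the 118 without one. Members cluster in the genome: 116 had another member within 250 kb, 76 of them with KRAB, and of the 108 more isolated members 30 had KRAB. Chromosome 7 held 44, chromosome 17 held 24 and chromosome 8 held 20. The exons of members had a median GC content of 47.2%, with 44.0% in KRAB members and 50.9% in the rest, against 49.9% in the 10097 protein-coding genes that pass the same rule whatever their symbol, members included. For 13 members, at least 20% of exonic stretches of 75 bases had another place in the genome, so their counts are uncertain, and 129 had none. Exons of 34 members overlap another gene on the opposite strand. The strand setting of the counting is not given in the sources used here, so the effect of these overlaps on their counts is uncertain.

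Zfp transcripts were of low to moderate abundance. Scaled by exon length, members had a median of 5.27 CPM per kb over the 12 libraries, against 9.23 for the genes passing the rule whatever their symbol. Zfp238 (Zbtb18, RP58), a repressor needed for cortical neuron development, had the highest level with 75.4 CPM per kb (range over libraries 65.9 to 92.02). It was followed by Zfp365 (DBZ), a centrosomal DISC1-binding protein, at 68.5 CPM per kb (61.1 to 79.7) and by Zfp706 at 56.5 (49.3 to 66.4), and the ranges of neighbours in this order overlapped. Zfp580 stood at 41.8 CPM per kb (25.4 to 59.9), Zfp771 at 26.2 (16.5 to 38.3) and Zfp106 at 26.1 (19.9 to 30.8). Of these, Zfp706 had other genomic places for 31.0% of its stretches. In all, the 224 members made up 7602 to 7929 CPM of each TRAP library and 7858 to 8311 of each input library.

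To ask which Zfp transcripts differ between tagged ribosomes and whole tissue, TRAP was compared with input over both genotypes. By edgeR's quasi-likelihood test, Benjamini-Hochberg adjusted over 13214 genes, 28 members (12.5%) were higher in TRAP and 31 (13.8%) lower at an adjusted p under 0.05. Of all genes tested, 19.6% were higher and 22.5% lower, so both shares of members lay under the background. The median log2 ratio was 0.01 for members and -0.01 for all genes, and members had a median of 92.9 counts against 102 for all genes tested. The 10097 genes passing the rule whatever their symbol had a median of 149 counts, with 23.5% higher and 20.8% lower. Without KO replicate 4, 19 members were lower, and all genes lower numbered 2428 of 13551, against 2976 of 13214 with it. In 10 of the members called higher and 12 of those called lower, the 6 TRAP and 6 input libraries did not overlap, which is 9.82% of members against 22.5% of all genes tested (1305 higher and 1671 lower). Each of the 4 groups had a mean of at least 20 counts in 209 members. The other 15 passed the rule on the mean of all libraries, with 1 or more groups under 20. Calls of such members, Zfp521 among them, are in the counts above.

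The member most depleted in TRAP was Zfp536 (chr7:38103693-38554771), a repressor of neuronal differentiation. In WT TRAP it had 12.1, 7.07 and 7.46 CPM and in KO TRAP 8.39, 5.62 and 6.85, against 60.3, 39.7 and 44.2 in WT input and 45.6, 39.0 and 41.5 in KO input. Every TRAP library lay far under every input library, and the difference was 5.66-fold (log2 -2.50 ± 0.17 SE, adjusted p = 4.56e-12). Zfp521, a regulator of progenitor fate, was at 2.85, 0 and 3.20 CPM in WT TRAP, at 4.75, 1.96 and 1.96 in KO TRAP, and at 9.19 to 12.9 in the 6 input libraries. With 0 counts in WT TRAP 2, levels up to 0.694 CPM are allowed there. Its TRAP libraries held 0 to 17 counts and its input libraries 40 to 58, so it is a member through input alone, and its fitted log2 ratio of -2.15 ± 0.39 (SE) is given as a description. Its paralog Zfp423 went the other way, from 67.4 ± 7.07 CPM in input to 79.9 ± 9.14 in TRAP (SD, n = 6, log2 0.25 ± 0.10 SE, edgeR adjusted p = 0.0451). The sums of the glial, GABAergic, and dentate and CA3 markers were also lower in TRAP in every pool, and so moved with the values of Zfp536 and Zfp521. Their part in them was not tested.

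The other 6 members lower in TRAP that the naming rule picked fell less. Zfp62 (chr11:49016794-49032318), with 25 fingers, was at 20.5 to 37.7 CPM in TRAP and 39.7 to 58.8 in input (log2 -0.80 ± 0.13 SE, edgeR adjusted p = 1.59e-05). Zfp652, at 57.0 to 65.0 against 92.6 to 111.3 CPM, fell by 0.71 on the log2 scale, and the KRAB member Zfp266 by 0.70, from 32.6 to 46.6 CPM in input to 18.9 to 32.2 in TRAP. Zfp609, a partner of the cohesin loader Nipbl, fell by 0.67 from 148 ± 11.4 to 93.3 ± 7.27 CPM (SD, n = 6). Zfp644, which works with the methyltransferases G9a and GLP, fell by 0.64 from 208 ± 15.5 to 134 ± 10.4 CPM. Zfp106, an RNA-binding protein of motor neurons, fell by 0.36 from 324 ± 18.4 to 253 ± 20.2 CPM. For Zfp106, 30.1% of the exonic sequence overlaps genes on the other strand, and its call was the only one of these 16 lost when the exon GC and length trend was removed (log2 -0.07, edgeR adjusted p = 0.414).

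Among members higher in TRAP, Zfp653 (chr9:21859904-21875789) had the largest ratio. The WT TRAP libraries had 28.9, 26.6 and 21.6 CPM and those of KO 28.8, 25.9 and 28.2, against 7.57, 13.1 and 14.4 in WT input and 15.4, 11.8 and 14.6 in KO input (2.08-fold, log2 1.05 ± 0.17 SE, edgeR adjusted p = 1.51e-05). Its highest input library stayed under its lowest TRAP library. Zfp341, an activator of Stat3 transcription, rose from 11.6 ± 2.68 to 22.4 ± 3.26 CPM (SD, n = 6, log2 0.95). Zfp580 (chr7:5003134-5005324), a short gene with 65.0% GC in its exons, rose from 33.0 ± 3.63 to 59.1 ± 4.63 CPM (log2 0.84 ± 0.11 SE, edgeR adjusted p = 7.79e-07). With the GC and length trend removed its log2 ratio was 0.43. Zfp444 (chr7:6123828-6142951) rose from 33.6 ± 3.09 to 58.7 ± 9.10 CPM (log2 0.80). Smaller rises were those of Zfp553 (log2 0.59), Zfp622 (0.49), which acts in maturation of the large ribosomal subunit, Zfp281 (0.47), a repressor of pluripotency genes, and Zfp697 (0.45).

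**Figure D1:**
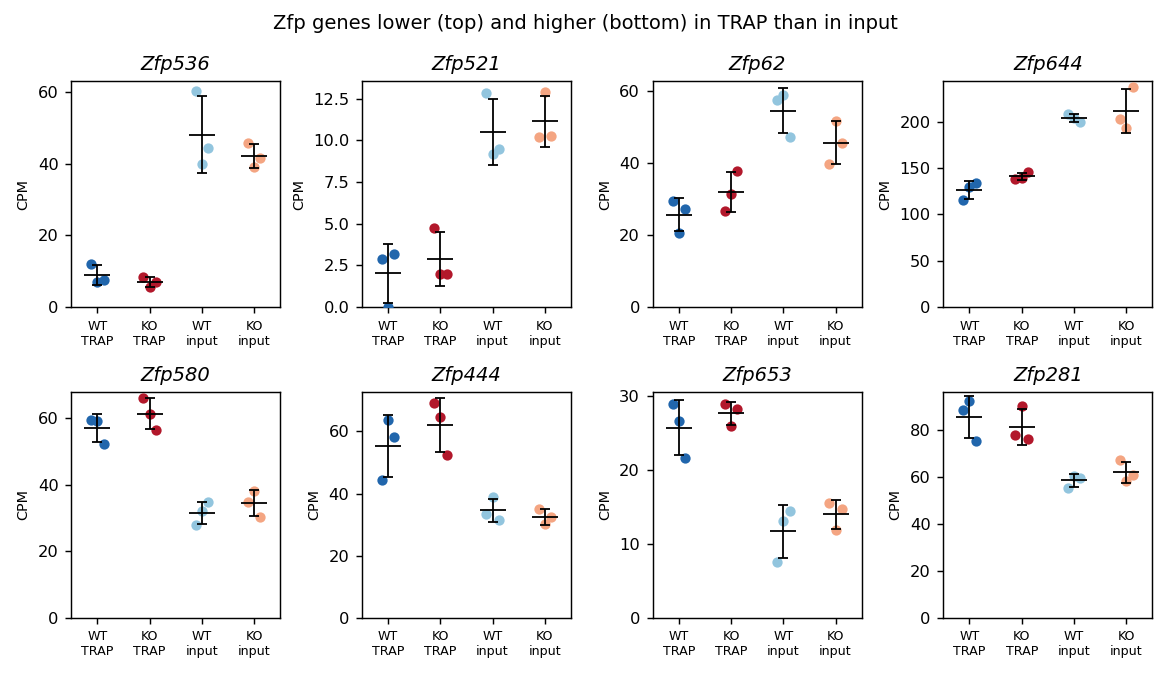
CPM (TMM-scaled, y axis) of 8 Zfp genes in the TRAP and input libraries of each genotype, with each point a library and bars the mean and SD of 3. In each of the 8 panels the 6 TRAP libraries lie wholly under (top row) or over (bottom row) the 6 input libraries. In Zfp521, a member through input alone, the WT TRAP 2 library is at 0.

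The ratios were then taken in each genotype apart. In WT, 11 members were higher and 13 lower in TRAP, where 11.8% and 13.1% of 12426 genes were called, and in KO 15 were higher and 17 lower, where 13.2% and 15.9% of 12463 genes were called. The members' shares, 4.91% and 5.80% in WT and 6.70% and 7.59% in KO, were again under the background. Both genotypes called 18 members, all in the same direction, which is 18 of 24 called in WT and 18 of 32 called in KO. The sign of the ratio was the same in 155 of the 224 members. These counts moved with those of all genes when a pool was left out. Without WT replicate 3, 3 members were higher and 4 lower in WT, and all genes numbered 479 and 810 of 12554, down from 1472 and 1624. Without WT replicate 2, 3 members and 778 of 12486 genes were higher. Without KO replicate 4, 5 members were higher and 8 lower in KO, and all genes numbered 725 and 1257 of 12568, down from 1648 and 1978. Without KO replicate 2, 8 members and 1038 of 12605 genes were higher. A fit of all 12 libraries gave 21 members lower in WT, with 2111 of 13214 genes. With the exon GC and length trend of all genes removed from each library, 11 members were lower in KO, with 1697 of 12463 genes.

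**Figure D2:**
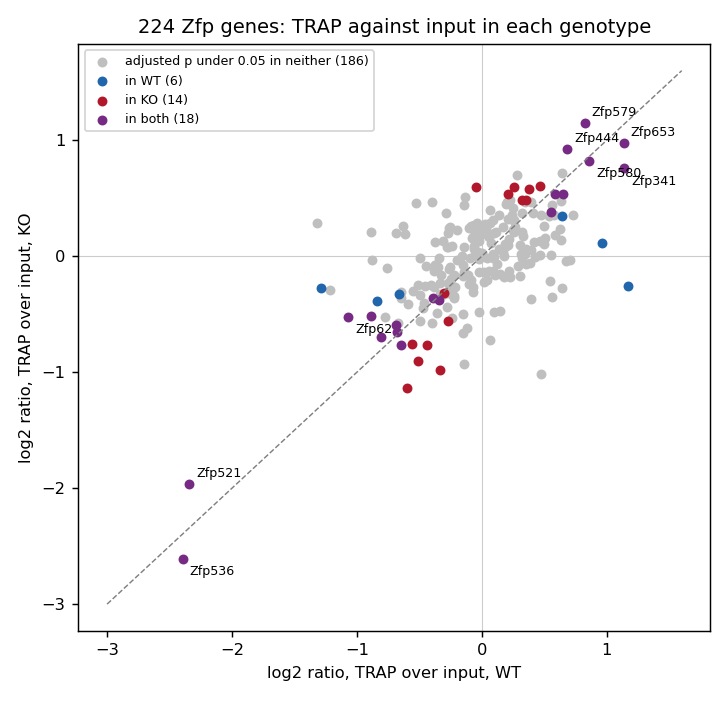
Log2 ratio of TRAP over input in WT (x axis) and in KO (y axis) for the 224 Zfp genes, coloured by the genotype in which the adjusted p was under 0.05, with a dashed line of equal ratios. The 18 genes called in both lie on the same side of 0 in each. Zfp536 and Zfp521, the latter a member through input alone, lie far below the rest.

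Members were next described by protein class and position, beside the 19.6% of all genes that were higher and the 22.5% that were lower. The differences between classes were not tested. Of 106 KRAB members, 4 were higher (3.77%) and 11 lower (10.4%) in TRAP, with a median log2 ratio of -0.00. Of 118 members without KRAB, 24 were higher (20.3%) and 20 lower (16.9%), with a median of 0.03. KRAB members had a median of 61.4 counts and the others 127. Among 40 members with 3 to 6 fingers, 10 were higher and 5 lower (12.5%, median 0.17), and among 99 members with 7 to 12 fingers, 10.1% were higher and 18.2% lower (median -0.03). Of the 116 members within 250 kb of another, 14 were higher (12.1%) and 8 lower (6.90%), and of the 108 isolated ones 14 and 23 (21.3%). In the 24 members with 0 to 2 fingers 8.33% were called in each direction, and in the 61 with 13 or more 9.84%. The KRAB members that were higher were Zfp938, Zfp941, Zfp27 and Zfp777, and those lower included Zfp458 (log2 -0.87), Zfp809 (-0.78) and Zfp266.

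Exon composition moved with the ratio in members and in genes at large. Of 53 members with at most 42% exon GC, 1 was higher (1.89%) and 10 were lower (18.9%), with a median of -0.17, against 11.5% and 33.6% of the genes of that range that pass the rule whatever their symbol (median -0.17). Of 58 members above 52%, 16 were higher (27.6%) and 6 lower (10.3%), with a median of 0.23, against 32.1% and 14.6% of such genes (median 0.17). In both ranges the shares of members lay under those of the genes at large. Spearman's rho between exon GC and the log2 ratio, a description across genes that share their libraries and are not independent, was 0.34 over 224 members and 0.25 over those 10097 genes. With exon length it was -0.28 and -0.32. Once the GC and length trend of all genes was removed from each library, 31 of 224 members were higher and 21 lower, against 2574 and 2639 of all 13214 genes. The medians of members in those 2 GC ranges were then 0.08 and 0.11. The KRAB members numbered 4 higher and 6 lower of 106, and the others 27 and 15 of 118.

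**Figure D3:**
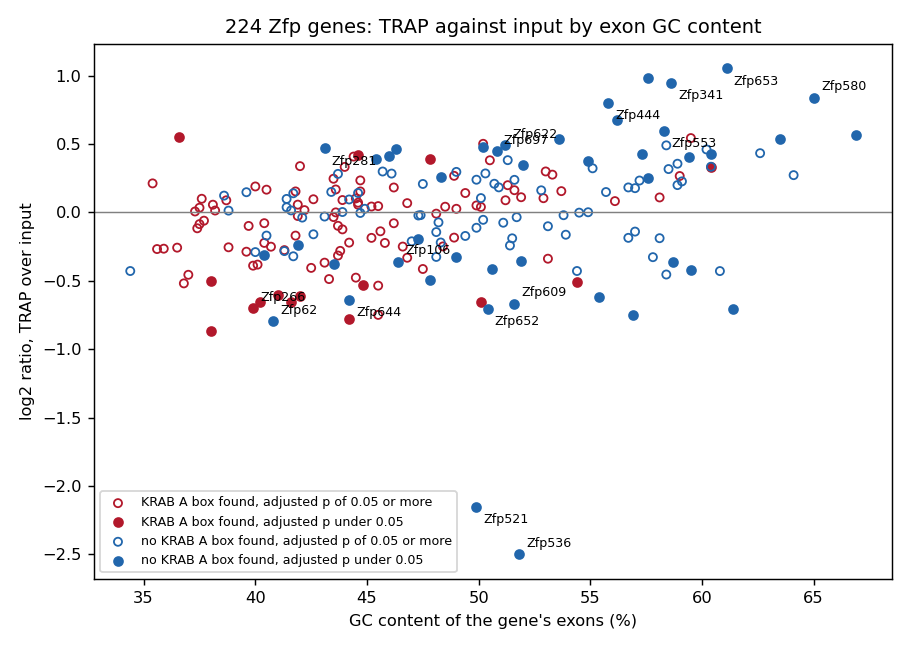
Log2 ratio of TRAP over input (y axis) against the GC percentage of a gene's exons (x axis) for the 224 Zfp genes, red where a KRAB A box was found and blue where not, filled where the adjusted p was under 0.05. Ratios rise from left to right, with a median of -0.17 at up to 42% GC and 0.23 above 52%, and KRAB genes lie mostly at the low-GC side.

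The members were also read by known role. These lists hold 3 to 11 members each, and against the 19.6% of all genes higher and 22.5% lower their counts are given as descriptions, with nothing read from them about a role. Among members with roles in RNA handling and ribosomes, 2 of 7 were higher and 1 lower in TRAP. Zfp622 and Zfp346, a binder of double-stranded RNA (log2 0.35 ± 0.13 SE, edgeR adjusted p = 0.0398), were higher and Zfp106 was lower. Zfp598, which senses collided ribosomes, had a log2 ratio of 0.20 (adjusted p = 0.272), and the splicing factors Zfp326 and Zfp830 had 0.01 and 0.28, none past the threshold.

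Of 11 members with roles in neuronal or glial development, 2 were higher and 3 lower. Zfp462 and Zfp423 were higher, and Zfp536, Zfp521 and Zfp365 lower, the last by 0.19 on the log2 scale (333 ± 15.1 CPM in TRAP, 380 ± 28.8 in input, SD, n = 6). Zfp521 is a member through input alone, so its place among the 3 is a description. Zfp238 was at 363 ± 15.7 CPM in TRAP and 406 ± 49.5 in input (adjusted p = 0.0913). Zfp189, linked to stress resilience in prefrontal cortex, was at 37.6 ± 7.23 CPM in TRAP and 33.9 ± 5.69 in input (adjusted p = 0.408).

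Of 10 members of general transcription and ubiquitin or SUMO pathways, 1 was higher and 5 were lower. Zfp281 was the one that rose. Those that fell were Zfp687 (log2 -0.62), the ubiquitin ligase Zfp91 (-0.38), Zfp592 (-0.35), the GC-box factor Zfp148 (-0.31) and the SUMO ligase Zfp451 (-0.24). Of 3 measured silencers of imprints and retroelements, Zfp809, which silences murine leukaemia virus in stem cells, was lower (log2 -0.78 ± 0.26 SE, edgeR adjusted p = 0.0179), while Zfp445 and Zfp932 stood at 0.06 and -0.46 without passing. Zfp932 shares 86.2% of its stretches with other places. Zfp57 and Zfp568, with means of 18.1 and 16.5 counts, were under the threshold for members.

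The partners of KRAB proteins were read from a list of 34 genes, of which 33 were annotated under that symbol and 32 tested. Of these, 8 were higher and 5 lower (15.6%) in TRAP, near the 19.6% and 22.5% of all genes, with a median log2 ratio of 0.08. Trim28, the KRAB corepressor, was at 180 CPM in TRAP and 108 in input (log2 0.73 ± 0.08 SE, edgeR adjusted p = 3.15e-08). The histone deacetylase Hdac2 (0.38) and the chromatin proteins Chd4 (0.38), Rbbp7 (0.44), H3f3b (0.41), Daxx (0.40) and Dnmt1 (0.29) were also higher, as was the ubiquitin ligase Rlim (0.23). The Setdb1 cofactor Atf7ip was lower (log2 -0.75, adjusted p = 1.82e-07), as were Cbx5, which encodes HP1 alpha (-0.35), Smarcad1 (-0.50), Trim24 (-0.29) and Mta3 (-0.24). Setdb1 itself was at -0.25 (adjusted p = 0.142). Between KO and WT none of the 32 was called in either fraction, with 4 (12.5%) at an unadjusted p under 0.05 in TRAP, where 6.05% of all genes were, and 0 in input.

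The TRAP libraries labelled KO were compared with those of WT. Counts over the whole Fosb gene were 18.8 to 29.4 CPM in these KO libraries against 32.1 to 45.3 in WT, a difference that was not called, and the deleted exons were not examined. None of the 224 members passed an adjusted p of 0.05 in edgeR, where 0.0682% of 11727 genes did. At an unadjusted p under 0.05 there were 7 members higher and 3 lower in KO, 4.46% of members against a background of 6.05%, and DESeq2 gave 7 members in all at that level, with 560 of all 11727 genes, and 0 members adjusted. The median log2 ratio of members was 0.05 (126 of 224 above 0) against -0.00 for all genes, and without WT replicate 3 it was 0.01. The KO and WT groups did not overlap for 34 members (22 higher, 12 lower), 15.2% against 11.9% of all genes. With 3 libraries in each group an exact permutation test cannot go below 0.10 for a single gene.

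The first of the 3 lower in KO at that level, by p, was Zfp772 (chr7:7154833-7162506), a KRAB gene. It was at 9.98, 6.60 and 7.19 CPM in WT TRAP (56, 28 and 27 counts) and at 1.68, 1.47 and 4.90 in KO TRAP (6, 6 and 20 counts), a log2 ratio of -1.55 ± 0.52 (SE, edgeR adjusted p = 0.595). As its KO TRAP libraries average under 20 counts, it is a member through its other libraries, and its values are a description. Its input libraries, at 9.90, 8.73 and 7.96 in WT and 6.41, 3.56 and 5.46 in KO, did not overlap either (log2 -0.78, edgeR adjusted p = 1.00). Of its stretches, 18.5% had another place in the genome. Zfp524 (chr7:4967103-4970088) was at 8.20, 12.96 and 13.05 CPM in WT TRAP and at 6.15, 4.64 and 6.85 in KO TRAP (log2 -0.94, edgeR adjusted p = 0.753). Zfp830, a splicing factor, was at 22.6 to 26.4 CPM in WT TRAP and 14.2 to 18.2 in KO TRAP (log2 -0.53, edgeR adjusted p = 0.798), with WT and KO input libraries overlapping at 14.7 to 19.4.

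On the higher side, Zfp266 (chr9:20299512-20325861) was at 18.9, 22.4 and 19.4 CPM in WT TRAP and at 32.2, 31.5 and 28.4 in KO TRAP (log2 0.60 ± 0.21 SE, edgeR adjusted p = 0.670). The TRAP groups stood apart while the input groups overlapped. Zfp943, a KRAB gene of the chromosome 17 cluster, had 8.73, 12.02 and 11.45 CPM in WT TRAP and 23.2, 17.4 and 15.2 in KO TRAP (log2 0.79, edgeR adjusted p = 0.728). The highest value was in KO TRAP 2, the library with the high GABAergic sum, and the other KO TRAP libraries also lay above all 3 of WT. Zfp212 had 15.7 to 18.2 CPM in WT TRAP and 22.5 to 26.3 in KO TRAP (log2 0.54, edgeR adjusted p = 0.784). Zfp704 (log2 0.34), Zfp142 (0.36), Zfp871 (0.41) and Zfp668 (0.46) were the others higher at an unadjusted p under 0.05. Zfp384, Zfp800 and Zfp358, next on the lower side, had log2 ratios of -0.38, -0.47 and -0.37 and missed that level. Zfp189 was at 0.06 (edgeR adjusted p = 0.986).

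**Figure D4:**
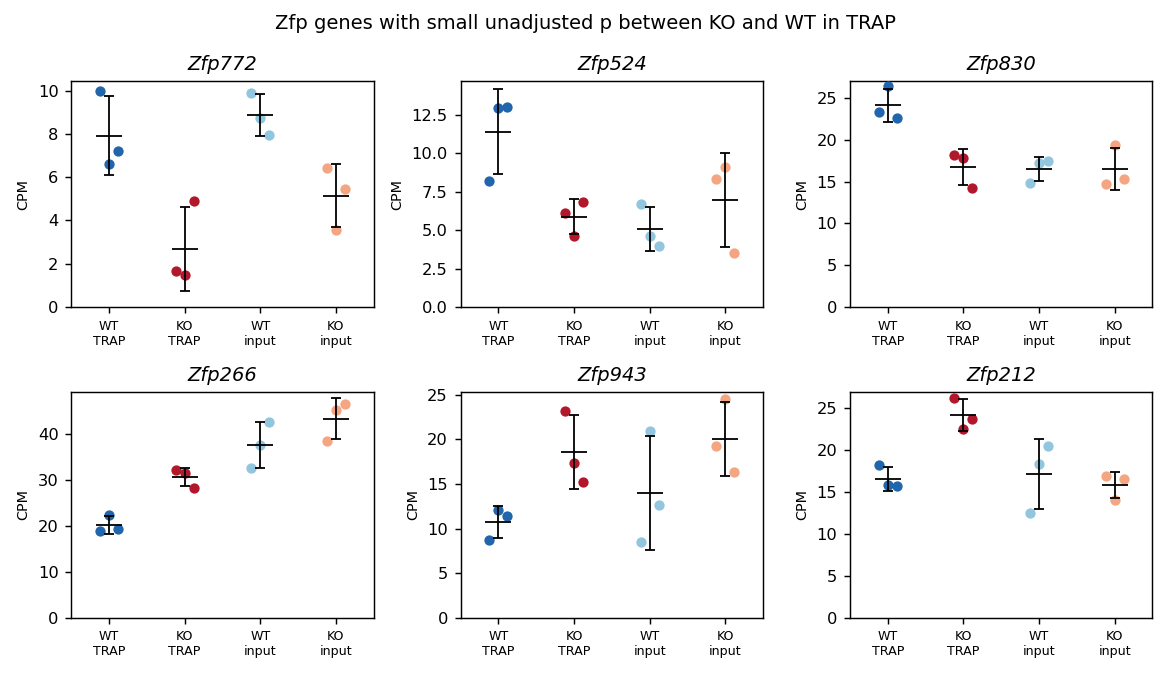
CPM (TMM-scaled, y axis) of 6 Zfp genes in the 4 groups, with each point a library and bars the mean and SD of 3. The WT TRAP and KO TRAP points do not overlap in any of the 6 panels, and none of the 6 genes passed an adjusted p of 0.05.

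Both Zfp772 and Zfp524 lie on the chromosome of Fosb, 12.7 and 14.9 Mb from it and so outside the 10 Mb that the choice of members left out. Of 26 members on chromosome 7 within 20 Mb of Fosb, these 2 had an unadjusted p under 0.05 between KO and WT in TRAP, which is 7.69%, and the median log2 ratio of the 26 was 0.10. In that interval 9 of 111 genes passing the rule whatever their symbol (8.11%, median -0.03) were at that level, against 6.05% of all genes. At an adjusted p under 0.05 in edgeR, 1 of the 111 was called, lower in KO (0.901%), against 0.0682% of all genes. That gene is not a member, and the rule leaves out the 10 Mb next to Fosb. Among the neighbours of Zfp524, Zfp865 had a log2 ratio of -0.28, Zfp579 of -0.17, Zfp580 of 0.10 and Zfp628 of 0.09, and next to Zfp772, Zfp418 had 0.65 and Zfp954 -0.16, none at an unadjusted p under 0.05. Whether the floxed allele and the sequence linked to it have a part in the values of Zfp772 and Zfp524 was not tested.

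In input, which holds all cells of the punch, none of the members was called between KO and WT in edgeR, where 0.0312% of 12816 genes were. At an unadjusted p under 0.05 there were 3 higher and 4 lower, 3.12% against 2.89% of all genes, and DESeq2 gave 5 members at that level, with 296 of all 12816 genes, and 0 members adjusted. The 7 members became 14 without WT replicate 2, where all genes at that level went from 371 of 12816 to 665 of 13213. They became 3 without WT replicate 1, with 440 of 13132 genes, and 3 without KO replicate 4, with 306 of 13179. Of the 163 members with a mean of 50 counts or more, 3 were at that level. The median log2 ratio was 0.03, a value that moved with the pool left out. Of the members, 18 (8.04%) did not overlap, against 8.38% of all genes. Zfp703, a transcriptional repressor without a C2H2 match, was at 35.2, 30.1 and 43.3 CPM in WT and 29.2, 20.3 and 21.9 in KO (log2 -0.61 ± 0.20 SE, edgeR adjusted p = 1.00). Zfp747, with 50.0% of its stretches shared with other places, was at 24.5, 9.19 and 9.95 in WT and 6.41, 9.57 and 4.59 in KO, the highest value being WT input 1, the library with the fewest counts. The other members at an unadjusted p under 0.05 were Zfp956 (log2 0.74), Zfp931 (0.91), Zfp672 (0.38), Zfp946 (-0.99) and Zfp772. Zfp946 had the lowest mean of all members, 20.4 counts, and its ratio is a description.

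**Figure D5:**
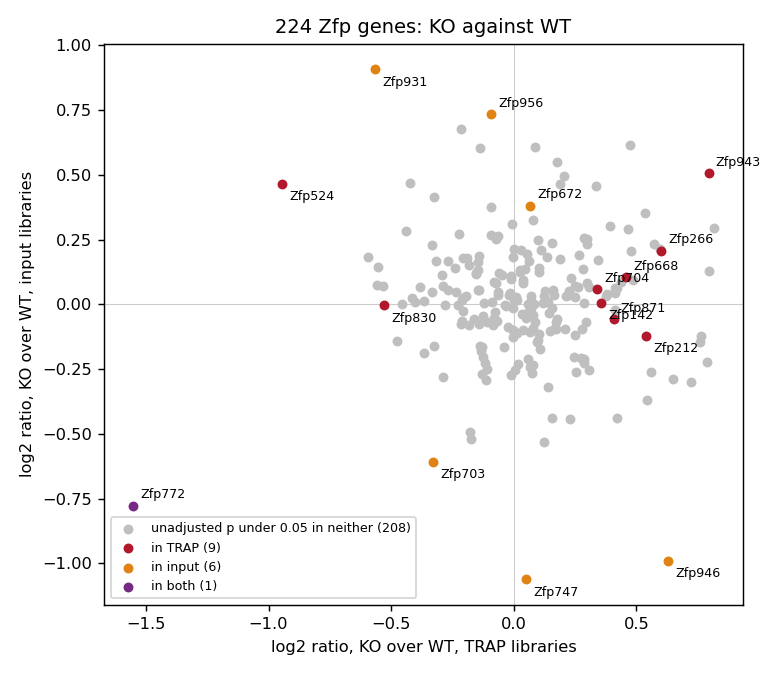
Log2 ratio of KO over WT in TRAP libraries (x axis) and in input libraries (y axis) for the 224 Zfp genes, coloured where the unadjusted p was under 0.05. Of 16 coloured points, 9 are coloured for TRAP, 6 for input and 1, Zfp772, for both, and none has an adjusted p under 0.05.

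The difference of the TRAP to input ratios between KO and WT was tested as an interaction over all 12 libraries. No member was called by edgeR, where 0.00757% of 13214 genes were, and 6 (2.68%) had an unadjusted p under 0.05 against 2.71% of all genes, with 5 by DESeq2 (0 adjusted), against 373 of all 13214 genes. Without KO replicate 2, the pool of the TRAP library with the high GABAergic sum, there was 1 member and 298 of 13522 genes. Zfp524 had the smallest p, with a log2 ratio of TRAP over input of 1.17 in WT and -0.25 in KO (difference -1.41 ± 0.57 SE, edgeR adjusted p = 1.00). Zfp931, where 66.4% of stretches have another place, had 0.48 in WT and -1.01 in KO (difference -1.47). Zfp646 had -0.25 in WT and 0.25 in KO (difference 0.52).

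FosB binds DNA as part of AP-1, so promoters of members were searched for the AP-1 site TGANTCA and for TGACGTCA, the CRE site that some AP-1 dimers also bind. RefSeq promoters (GRCm38.p6, 250 bases before to 50 after the start) were matched for 179 of 224 members. TGANTCA, which reads the same on both strands, stood in 10 (5.59%), against 8.97% of 27025 genes in the table, and TGACGTCA in 6 (3.35%), against 2.03%. Of 10 members with an unadjusted p under 0.05 between KO and WT in TRAP, 8 were matched, of which Zfp871 held TGANTCA and Zfp266 held TGACGTCA. The promoter of Zfp266, the member with the smallest p on the higher side, is shown with that match in capitals (GRCm38.p6, chr9:20521370-20521669, minus strand).
Zfp266: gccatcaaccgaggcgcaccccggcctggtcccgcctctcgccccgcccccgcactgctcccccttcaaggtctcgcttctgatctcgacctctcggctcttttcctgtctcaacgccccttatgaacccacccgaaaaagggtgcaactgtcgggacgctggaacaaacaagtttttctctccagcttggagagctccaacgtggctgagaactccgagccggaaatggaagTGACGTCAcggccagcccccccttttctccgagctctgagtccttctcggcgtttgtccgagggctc
The match lies at bases 234 to 241 of the 300. It describes the sequence only and says nothing of binding in these cells.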

How the data were processed

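The authors deposited raw counts of reads per gene for 12 libraries, obtained from TopHat alignments on mm9 by HTSeq-count with the Gencode vM1 genes, neither normalized nor filtered (the submitters' processing notes also name DESeq2). Reads on no gene (20.6% to 27.1%) or ambiguous between genes (2.11% to 2.56%) were left out of library sizes. Alignments that were not unique in the genome, 3438372 (WT input 1) to 6518589 (WT input 3) per library, were left out too. They are not part of these percentages. Depth was 3416030 to 5614089 counts per library, and the limits set by a count of 0 cover counting error only. Libraries whose title lacks the word input were read as TRAP. Members and lists were chosen with earlier results of these data known.

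Tests on these counts used edgeR 4.0.16 under R 4.3.3 (default expression filter, TMM, robust dispersion, quasi-likelihood test), with Benjamini-Hochberg adjustment over all genes tested and a threshold of 0.05. TRAP against input and the interaction used all 12 libraries, and the other comparisons only their own groups. The SE is the log2 ratio divided by the square root of F. All 224 members were tested in each comparison. The steps were tested on simulated data. CPM are TMM-scaled over 12 libraries. The labels number the TRAP and input libraries of a pool alike since they come from the same animals (correlation of deviations 0.0579 to 0.106). Numbers shared by WT and KO stand for different mice.

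Fingers were counted in Gencode proteins with a pattern of the cysteine and histidine spacing, and KRAB A boxes with an HMMER 3.4 profile of 93 windows (E under 1e-05). Exonic stretches of 75 bases were aligned to mm9 with minimap2 2.31, and those with another place at up to 2 mismatches counted as shared. Named genes were the 8 smallest p in each direction for TRAP against input with no overlap, the 6 smallest in each direction for KO against WT in TRAP, 3 in each for input, 3 for the interaction, the 6 highest levels, the genes at the threshold, and members of the role lists. Zfp668, the KRAB genes called, the chromosome 7 neighbours and members of the partner list with a call were named after their values were seen. Alternatives were RLE, library totals, other filters, no mitochondrial genes, no robust dispersion, DESeq2 1.42.0, a pool block, each pool left out, all 12 libraries in a fit, other choices of members, and, chosen after seeing the data, removal of the exon GC and length trend of all genes (splines with 5 degrees of freedom, centred at the median of each library).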

Additional observations from a re-analysis of the deposited data

How the results depend on the processing

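Values are for the 224 members unless stated. No member was called between KO and WT, or in the interaction, under any alternative run, and none of the log2 ratios of the genes named for their p changed sign in the comparison that named them. The other named genes were not followed over the alternatives. Of 16 genes named for TRAP against input, the call of Zfp106 alone was lost, when the GC and length trend was removed. Leaving out each pool in turn gave 19 to 29 members higher and 19 to 29 lower in TRAP (median log2 ratio -0.01 to 0.05), 3 to 11 and 4 to 15 in WT (median -0.0487 to 0.0225), and 5 to 11 and 8 to 15 in KO (median -0.01 to 0.03), while all genes numbered 2265 to 2696 and 2428 to 2938, 479 to 1512 and 810 to 1731, and 725 to 1416 and 1257 to 1765. Over the same omissions, members at an unadjusted p under 0.05 between KO and WT numbered 7 to 14 for TRAP (median 0.0142 to 0.0508) and 3 to 14 for input (median -0.00 to 0.06), and 1 to 7 in the interaction (median -0.0202 to 0.0528), while all genes at that level numbered 431 to 995, 306 to 665 and 281 to 525. With each pool as a replicate block, 28 members were higher and 30 lower in TRAP, and no call of a named gene changed, while the input median between KO and WT, where the shared numbers pair nothing, became -0.0296. A fit of all 12 libraries gave 21 members lower in WT, with 2111 of 13214 genes. Removing the GC and length trend moved the medians for TRAP against input to 0.087 over both genotypes, 0.0806 in WT and 0.0821 in KO, where those of all genes were 0.00367, 0.0216 and 0.0219, and left 11 lower in KO, with 1697 of 12463 genes. Library totals without TMM moved the medians to 0.059 in KO, 0.0786 for the TRAP libraries of KO against WT and 0.0857 in the interaction, and those of all genes to 0.0658, 0.0289 and 0.0457. With a mean of 50 counts for membership, the medians were 0.0312 in WT and 0.0624 in KO, and 3 of the 163 members left had an unadjusted p under 0.05 in input, where 2.89% of all genes did. The cause of the shifts that all genes did not share was not tested. At about 0.5 to 0.9 CPM for 3 counts, members near the threshold such as Zfp946 and Zfp521 carry wide errors.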
